A study of Mus musculus with 8 samples.

Results

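The genes described here are Nynrin and its relatives that encode a NYN domain, a fold of the PIN-like type found in ribonucleases. The members are Nynrin, Khnyn, N4bp1, Zc3h12a, Zc3h12b, Zc3h12c, Zc3h12d and Marf1, 8 of the 55416 genes in the count table. They were taken by gene symbol, and each symbol matched 1 row. Nynrin was chosen by its difference between L192P and WT in an earlier analysis of these same libraries. Its difference is therefore given as a description without a test, whereas the other 7 genes entered through their domain.

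The libraries were made from polyadenylated RNA of mouse cerebral cortex, 4 from mice that carry Ago2 with the substitution L192P on a single allele (called L192P) and 4 from wild-type animals (WT). This knock-in allele was made by genome editing of fertilised eggs and also carries a silent change that stops further cutting, and its founders were crossed to wild-type mice. How many founders gave rise to these animals, and their age and sex, are not given in the sources used here. Argonaute 2, the product of Ago2, holds a miRNA and lowers the output of mRNAs that pair with it. The comparison asked which of these transcripts differ in abundance between the cortices of both genotypes. Totals ran from 20396357 to 43575900 counts per library.

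NYN-domain proteins cut RNA, and several of them decide how long particular mRNAs or viral RNAs last. ZC3H12A, also called Regnase-1, cuts stem-loops in the 3′ UTR of inflammatory mRNAs, and ZC3H12B, ZC3H12C and ZC3H12D are its close relatives. KHNYN works with the zinc finger antiviral protein ZAP against CpG-rich viral RNA, and N4BP1 restricts viral mRNAs and dampens inflammatory signalling. MARF1 is needed for meiosis in oocytes, where it holds down retrotransposon transcripts. NYNRIN joins a NYN domain to an integrase-like part that came from a retroelement, and its function in brain is not established.

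Replicate 1 of each genotype stood apart from the other 6 libraries, with Xist at 0.934 and 1.82 normalized counts against 5185 to 7257. Chromosome Y genes had 3547 and 3534 raw counts there, against 186 to 573. This is the pattern of male animals in replicate 1 and female animals in the others, although the labels do not give sex. Replicate 1 of each genotype also had the lowest summed level of endothelial and mural markers. The same held for markers of cortical neurons, astrocytes, oligodendrocytes and microglia. Markers of cortical neurons, astrocytes, oligodendrocytes, microglia, vessels, blood and other brain regions were examined in 11 lists of 59 genes, of which 3 were called by DESeq2 at an adjusted p under 0.05, all higher in L192P, against 1.36% of all 18627 tested genes. The neuronal marker Gad2 was called with a DESeq2 adjusted p of 0.0235, and the cortical markers Slc17a7, Neurod6, Tbr1 and Camk2a were present. Of the hypothalamic list of 7 genes, Oxt and Avp were called and Pmch and Hcrt were high in L192P replicate 3. The summed hypothalamic level was 217 to 1231 normalized counts in L192P and 119.5 to 259 in WT, and the thalamic sum 3649 to 7044 against 3487 to 4166. The striatal sum was 16376 to 20563 in L192P and 20290 to 23961 in WT, and the ranges of all 11 lists overlapped.

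Nynrin was higher in every L192P library than in any WT library. Normalized counts, which are counts divided by a size factor for library depth, were 348, 399, 404 and 365 in L192P replicates 1 to 4. In WT replicates 1 to 4 they were 198.5, 226, 235 and 214. The lowest L192P value thus lay well above the highest WT value, and no library stood apart within its genotype. The means were 379 ± 27.1 in L192P and 218 ± 15.6 in WT (SD, n = 4), a log2 fold change of 0.79 (SE 0.11), or 1.73-fold. The raw counts behind these values were 183 to 400 reads per library. In this bulk tissue, more cells that express Nynrin cannot be told apart from more Nynrin RNA per cell.

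The difference was of the same size in each pair of same-numbered libraries, which deviate together across the transcriptome. The ratio of L192P to WT was 1.75, 1.77, 1.72 and 1.71 for replicates 1 to 4. The libraries also had the same order within both genotypes, with replicate 1 lowest, then 4, then 2, and replicate 3 highest. The spread relative to the mean was alike, at 7.14% in L192P and 7.16% in WT. Over the 17 alternative fits and subsets the log2 fold change stayed between 0.75 and 0.83. It was 0.79 without replicate 1 of both genotypes and 0.76 without L192P replicate 3.

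**Figure D1:**
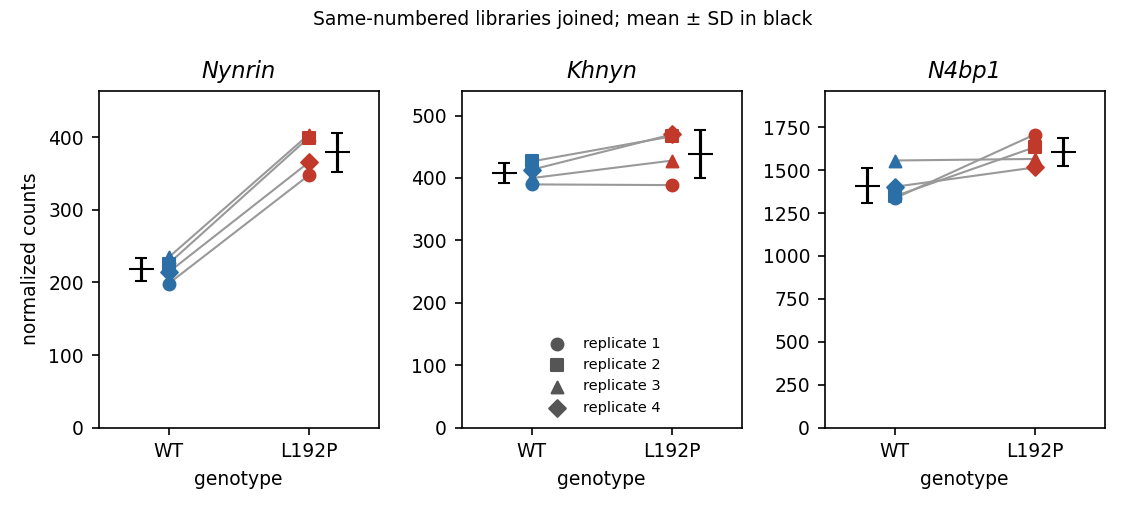
Normalized counts of Nynrin, Khnyn and N4bp1 in WT (blue) and L192P (red) libraries, with a marker shape for each replicate number, grey lines joining same-numbered libraries and the mean ± SD of 4 libraries in black. The 4 lines of Nynrin run nearly parallel from 198.5 to 235 up to 348 to 404, while the groups overlap for Khnyn and N4bp1.

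Nynrin (ENSMUSG00000075592) lies on the plus strand of GRCm39 chromosome 14, from 56091467 to 56112193. Its canonical transcript has 8 exons and a coding sequence of 5520 bases, the longest of the family, against 2013 bases for Khnyn. No other annotated gene overlaps it. Ago2 is on another chromosome, and its own transcript had 2291 ± 75.1 normalized counts in L192P and 2246 ± 130.4 in WT (SD, n = 4).

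As Argonaute 2 acts through pairing of the miRNA seed (bases 2 to 8) with the 3′ UTR, the 3′ UTR of the canonical Nynrin transcript, 1776 bases long, was searched for 7-base matches to the seeds of 11 miRNA families that are abundant in brain, on the transcribed strand. The sites found in Nynrin did not overlap each other. A 12th family, miR-124-3p, was not searched. Sites of 3 families were found, let-7, miR-15/16 and miR-101. The mature sequences of these miRNAs from RefSeq (GRCm38.p6 table) are printed first with the seed in capitals. The sites in Nynrin follow as DNA of the transcribed strand from GRCm39, with the bases that pair with the seed in capitals.
mmu-let-7a-5p: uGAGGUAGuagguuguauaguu
mmu-miR-16-5p: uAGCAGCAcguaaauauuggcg
mmu-miR-101a-3p: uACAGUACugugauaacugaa
Nynrin site for let-7, chr14:56111092-56111112: aattggcCTACCTCatttgat
Nynrin site for miR-15/16, chr14:56110454-56110474: gcatttcTGCTGCTagtcctc
Nynrin site for miR-101, chr14:56112010-56112030: ttagcagGTACTGTttcttcc
The let-7 and miR-15/16 sites are each followed by an A, the base that completes the longest canonical site, and the miR-101 site is not.

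Such sites are common. CTACCTC was present in 11.7% of 13981 3′ UTRs of protein-coding genes whose mean reached 10 normalized counts, TGCTGCT in 26.1% and GTACTGT in 12.2%. Genes of a single autosome, which holds none of the members, were left out of this set. Among the 2181 of these 3′ UTRs within 20% of the length of that of Nynrin, the shares were 12.7%, 27.5% and 11.4%. Sites for 3 or more of the 11 families were found in 28.0% of those 3′ UTRs.

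The other members did not share one set of sites. Khnyn had sites of 7 of the 11 families in a 3′ UTR of 3875 bases, and these included let-7, miR-15/16 and miR-101. As many families had sites in 3.07% of 3′ UTRs of similar length. N4bp1 had sites of 4 families, with 2 for miR-15/16 and 1 for miR-101 but none for let-7. The sites that Khnyn and N4bp1 have in common with Nynrin are shown for comparison, with the pairing bases in capitals.
Khnyn site for let-7, chr14:56136185-56136205: actgtacCTACCTCataaagt
Khnyn site for miR-15/16, chr14:56135739-56135759: gcctggcTGCTGCTtcccatt
Khnyn site for miR-101, chr14:56133824-56133844: ggggaatGTACTGTctgcaag
N4bp1 first site for miR-15/16, minus strand, chr8:87571130-87571150: taaattaTGCTGCTattacag
N4bp1 second site for miR-15/16, minus strand, chr8:87569440-87569460: gctctgtTGCTGCTaggtgct
N4bp1 site for miR-101, minus strand, chr8:87567881-87567901: caactgtGTACTGTgttgcct
Zc3h12c had sites of 3 families, Zc3h12a, Zc3h12d and Marf1 of 1 each, and Zc3h12b, with a 3′ UTR of 260 bases, of 0. miRNA levels were not measured in these libraries, and a match says only that the letters are present.

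Khnyn (ENSMUSG00000047153, chromosome 14, 56121822 to 56136444) is the closest relative of Nynrin and its neighbour, 9629 bases away on the same strand. Its normalized counts were 389, 467, 428 and 469.6 in L192P replicates 1 to 4. In WT they were 389.7, 426.5, 399.8 and 413. The groups overlapped, with replicate 1 lowest in both genotypes. The estimated log2 fold change was 0.10 with a 95% interval from -0.09 to 0.29, and the DESeq2 adjusted p was 0.869. On the opposite strand, exons of Sdr39u1 cover 21.6% of the exon bases of Khnyn, and how strand was handled in counting is unknown, so reads of both genes cannot be told apart there.

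With both genes read in the same library, the Nynrin count divided by the Khnyn count, not corrected for length, was 0.868 ± 0.0698 in L192P (SD, n = 4) and 0.536 ± 0.0349 in WT. Single libraries had 0.778 to 0.943 in L192P and 0.509 to 0.587 in WT, without overlap. This ratio contains the Nynrin values that led to its choice and is a description.

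N4bp1 (ENSMUSG00000031652, chromosome 8, 87534788 to 87611954, minus strand) came next to Nynrin in the size of its estimate among the well-measured members. Normalized counts were 1707, 1633, 1565 and 1515 in L192P replicates 1 to 4. In WT they were 1335, 1347, 1556 and 1403. The groups overlapped through WT replicate 3 alone, which lay above L192P replicate 4. On the log2 scale the estimate was 0.19 with a 95% interval from 0.04 to 0.33, an unadjusted p of 0.0101 and a DESeq2 adjusted p of 0.251. The gene did not pass the threshold of 0.05 in any of the 17 alternatives, where the adjusted p ran from 0.14 to 0.657. The interval reaches 1.26-fold. Gm64829, an antisense lncRNA gene, covers 3.71% of the exon bases of N4bp1.

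The Regnase genes showed no detectable difference. Zc3h12b (ENSMUSG00000035045, chromosome X, 94755284 to 94976243) had between 649 and 711 normalized counts in L192P and between 643 and 700.1 in WT. The estimate was a log2 fold change of 0.02 with a 95% interval from -0.13 to 0.17 and a DESeq2 adjusted p of 0.985, the tightest bound in this group. Zc3h12c (ENSMUSG00000035164, chromosome 9, 52020873 to 52080106, minus strand) stood at 326 ± 39.9 normalized counts for L192P and at 317 ± 39.5 for WT (SD, n = 4). The log2 fold change of Zc3h12c was 0.05, with an interval from -0.20 to 0.29 and a DESeq2 adjusted p of 0.981. The sign of both estimates turned when single libraries were left out.

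Zc3h12a, the founding Regnase gene (ENSMUSG00000042677, chromosome 4, 125012216 to 125021711, minus strand), was weakly expressed. Its counts were 13 to 36 reads per library. It had 18.8 ± 6.43 normalized counts in L192P and 19.0 ± 4.50 in WT (SD, n = 4), and its sign also turned between subsets. The log2 fold change of -0.025 had a 95% interval from -0.80 to 0.75, so that changes between 0.575 and 1.68 times the WT level could not be told from none at this depth. Zc3h12d (ENSMUSG00000039981, chromosome 10, 7708080 to 7746160) was at the edge of detection, with 11 reads in all 8 libraries together and 0 to 4 in each. It was the member without an adjusted p.

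Marf1 (ENSMUSG00000060657, chromosome 16, 13927030 to 13981215, minus strand) was the most abundant member. Normalized counts were 3472, 3474, 3355 and 3940 in L192P replicates 1 to 4. In WT they were 3584, 4010, 3713 and 4122. The groups overlapped, although L192P was the lower library in each same-numbered pair, with ratios from 0.866 to 0.969. The estimate was -0.12 on the log2 scale with a 95% interval from -0.26 to 0.03 and a DESeq2 adjusted p of 0.678, or 0.243 with the replicate number as a block. An exon overlap with Nde1 on the opposite strand covers 1.04% of the exon bases of Marf1.

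Apart from Nynrin, 6 members had an adjusted p, and 0 of them were called by DESeq2 or in any of the 17 alternatives, edgeR and limma among them. N4bp1 alone of these 6 had an unadjusted p under 0.05. Of all 18627 genes with an adjusted p, 253 were called, or 1.36%, with 0.789% higher and 0.569% lower in L192P, and 9.44% had an unadjusted p under 0.05. The groups of all 7 members other than Nynrin overlapped, while those of 5.97% of all tested genes did not, 3.01% with L192P the higher. With Nynrin included, the median log2 fold change of the 7 members with an adjusted p was 0.05, against 0.002 over all tested genes.

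**Figure D2:**
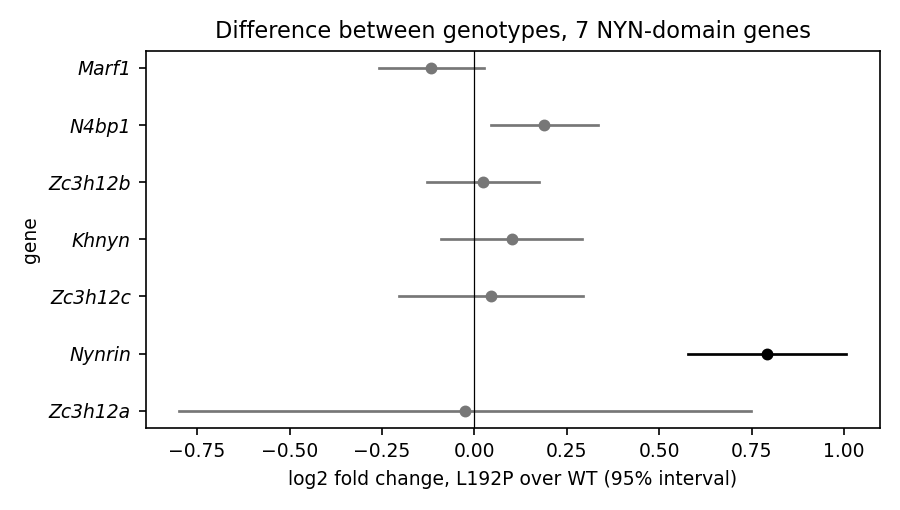
Log2 fold change of L192P over WT for the 7 NYN-domain genes with an adjusted p, with 95% intervals from the DESeq2 standard error. Nynrin (black) was chosen for its difference, and of the other genes (grey) N4bp1 lies at 0.19 and the interval of Zc3h12a runs from -0.80 to 0.75.

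Levels of different genes were compared per kilobase of exon, since a longer transcript yields more reads. Marf1 was highest in all 8 libraries, with 266 to 326 normalized counts per kilobase. N4bp1 followed with 107 to 137, Zc3h12b with 80.1 to 88.6 and Khnyn with 49.1 to 59.3. These 4 genes kept the same order in every library and their ranges did not overlap. Zc3h12a, at 3.12 to 7.08 normalized counts per kilobase, and Zc3h12d, at 0 to 0.722, were the lowest.

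Nynrin and Zc3h12c exchanged places between the genotypes. In all 4 WT libraries Zc3h12c had rank 5, at 31.7 to 42.1 normalized counts per kilobase, and Nynrin rank 6, at 26.4 to 31.2. In all 4 L192P libraries Nynrin had rank 5, at 46.2 to 53.7, and Zc3h12c rank 6, at 32.2 to 41.8. The L192P range of Nynrin overlapped that of Khnyn, 49.1 to 59.3, although Khnyn remained above it in each library. As a share of the summed per-kilobase level of the 8 genes, Nynrin stood at 4.66% in WT and 7.85% in L192P.

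**Figure D3:**
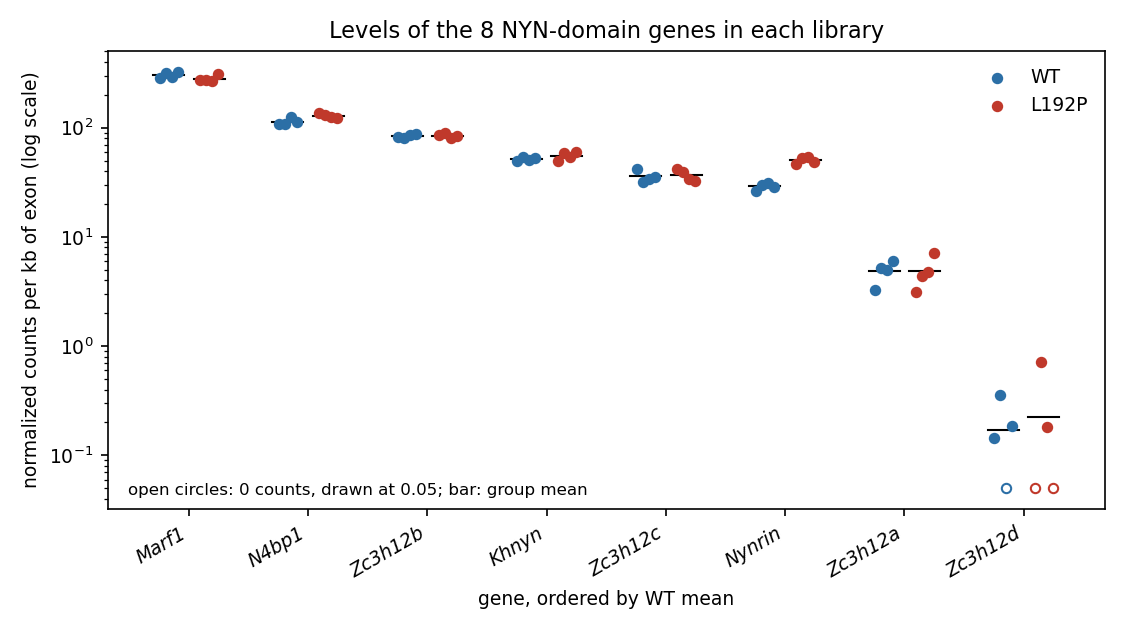
Normalized counts per kilobase of exon, on a log scale, of the 8 genes in 4 WT (blue) and 4 L192P (red) libraries, with bars at the group means and open circles for libraries with 0 counts. The genes span from Marf1, at 266 to 326, down to Zc3h12d, and Nynrin is the gene whose groups are apart.

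Other genes that encode a PIN-like or NYN domain were examined as a list of 8 genes. Of these, 0 were called by DESeq2, against 1.36% of all tested genes, and 1 had an unadjusted p under 0.05, against 9.44%. Smg5, a factor of nonsense-mediated decay, had an estimate of -0.035 on the log2 scale with a 95% interval from -0.16 to 0.09 (DESeq2 adjusted p = 0.958). Nob1, the nuclease that trims the small ribosomal RNA, had -0.024 with an interval from -0.17 to 0.12 (DESeq2 adjusted p = 0.983). The median over the list was 0.02. The gene with an unadjusted p under 0.05, named after its value was seen, was Swt1. It had 228 ± 8.07 normalized counts in L192P and 176 ± 22.3 in WT (SD, n = 4), without overlap, a log2 difference of 0.37 and adjusted p = 0.141 by DESeq2. edgeR and limma-voom also called 0 of the list.

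Of 13 partners and regulators of the family, such as the zinc finger antiviral protein, the Roquins, the protease MALT1 and the decapping factors, 0 were called by DESeq2, against 1.36% of all tested genes, and 4 had an unadjusted p under 0.05, against 9.44%. edgeR and limma-voom likewise called 0. Nedd4, the ubiquitin ligase after which N4BP1 (NEDD4-binding protein) is named, was the most abundant. It had 12811 ± 403 normalized counts in L192P and 11510 ± 591 in WT (SD, n = 4), a log2 difference of 0.16 and adjusted p = 0.176 by DESeq2. Dhx30, a helicase that binds ZAP, had a log2 difference of -0.049 and adjusted p = 0.914 by DESeq2. The smallest p of the list, named after its value was seen, was that of Zc3hav1l, a relative of the ZAP gene. It had 174 to 222 normalized counts in L192P and 121.5 to 169 in WT, without overlap, a log2 difference of 0.47 (SE 0.15), an unadjusted p of 0.00147 and adjusted p = 0.0854 by DESeq2. With the replicate block 2 genes of the list were called, Nedd4 higher in L192P with a DESeq2 adjusted p of 0.0227 and Dcp2, the decapping enzyme, lower with 0.0171. The block raised the share of called genes to 4.25% of 12536 genes.

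Of 12 transcripts known as targets of Regnase-1, 6 were abundant enough for an adjusted p. Of these, 0 were called by DESeq2, edgeR or limma-voom, and 0 of all 12 had an unadjusted p under 0.05. Tfrc, the transferrin receptor, had 2183 ± 206 normalized counts in L192P and 2356 ± 150 in WT (SD, n = 4), a log2 difference of -0.11 and adjusted p = 0.763 by DESeq2. Ptgs2, which encodes cyclooxygenase-2, had 239 ± 23.1 and 269.8 ± 24.1, a log2 difference of -0.18 and adjusted p = 0.719 by DESeq2. Il6 had 0 to 5.69 normalized counts per library.

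The list of domesticated retroelement genes, to which Nynrin is related by its integrase-like part, held 23 other genes that descend from retroelement sequences. Of the 22 with an adjusted p, 5 rose in L192P, 0 fell and 17 did not pass, against 0.789% of all tested genes called in the higher direction. The list was chosen with earlier results of these data known, so setting it beside that share is a description. The median log2 fold change of the 22 was 0.12. The called genes were Zcchc12, Peg10, Pnma8b, Rtl5 and Pnma8a. Their groups did not overlap, which held for 3.01% of all tested genes with L192P the higher. This trait rests on the same values as the calls. edgeR, limma-voom and limma-trend each called 2 of the list, Zcchc12 and Pnma8b. DESeq2 called 5 without L192P replicate 3, and also 5 without replicate 1 of both genotypes.

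Zcchc12, a transcriptional co-activator of the PNMA group, had 3037, 2918, 2514 and 2936 normalized counts in L192P replicates 1 to 4 and 2157, 1404, 1608 and 1601.5 in WT. WT replicate 1 was the closest to the L192P libraries. The rise on the log2 scale was 0.75 (SE 0.11), at adjusted p = 6.31e-08 by DESeq2, and the gene passed in all 17 alternatives. Pnma8b, the most abundant gene of the list, rose from 10430 ± 404.5 to 13417 ± 773 normalized counts (SD, n = 4). On the log2 scale the rise was 0.36 (SE 0.06), at adjusted p = 9.35e-07 by DESeq2, and it also passed in all 17 alternatives.

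Peg10, an imprinted gene with a retroviral gag-like and pol-like frame, had 1355, 1850.4, 1276 and 1933 normalized counts in L192P replicates 1 to 4 and 1182, 762, 1034 and 947 in WT. The rise was 0.71 on the log2 scale (SE 0.15), at adjusted p = 0.00045 by DESeq2. With the replicate block the DESeq2 adjusted p of Peg10 was 0.116, and without WT replicate 3 it did not pass either, within a range over all alternatives from 1.74e-05 to 0.134. Rtl5 and Pnma8a, derived from gag sequences, had smaller log2 fold changes of 0.33 and 0.20 at adjusted p = 0.00479 and 0.0107 by DESeq2. They passed in 11 and 10 of the 17 alternatives. Rtl5 was lost in the DESeq2 fits without L192P replicate 4, WT replicate 2 or WT replicate 3, and Pnma8a without L192P replicates 2 or 4 or WT replicates 2 or 3. The count for the list was 3 without L192P replicate 4 or WT replicate 2 and 2 without WT replicate 3.

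The other genes of the list lay on both sides of 0. Arc, an activity-dependent gene of gag origin, ranged from 652 to 5401 normalized counts in WT and from 1467 to 3332 in L192P, a log2 difference of -0.47 and adjusted p = 0.926 by DESeq2. Rtl8a, Rtl8b and Rtl8c, whose sequences are so alike that reads may be split among them, had log2 fold changes of 0.07, -0.055 and -0.023. Gin1, which like NYNRIN carries an integrase-like part, had a log2 difference of -0.16 and adjusted p = 0.88 by DESeq2. L192P replicate 2 had 399 normalized counts of Nynrin, 2918 of Zcchc12 and 14142 of Pnma8b, each above all WT libraries. Its hypothalamic sum was the lowest of its genotype, but its Oxt, at 19.3 normalized counts, was also above the WT range of 2.73 to 7.6. L192P replicate 3 had the highest hypothalamic and thalamic sums. Without it, the log2 fold change of Nynrin went from 0.79 to 0.76. That of the called genes was 0.81 for Zcchc12, 0.35 for Pnma8b, 0.81 for Peg10, 0.33 for Rtl5 and 0.22 for Pnma8a. L192P replicates 1 and 4, which stayed in that fit, had Oxt at 144.8 and 154.5 normalized counts. The part of hypothalamic or thalamic tissue in the Nynrin and retroelement values was not tested.

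**Figure D4:**
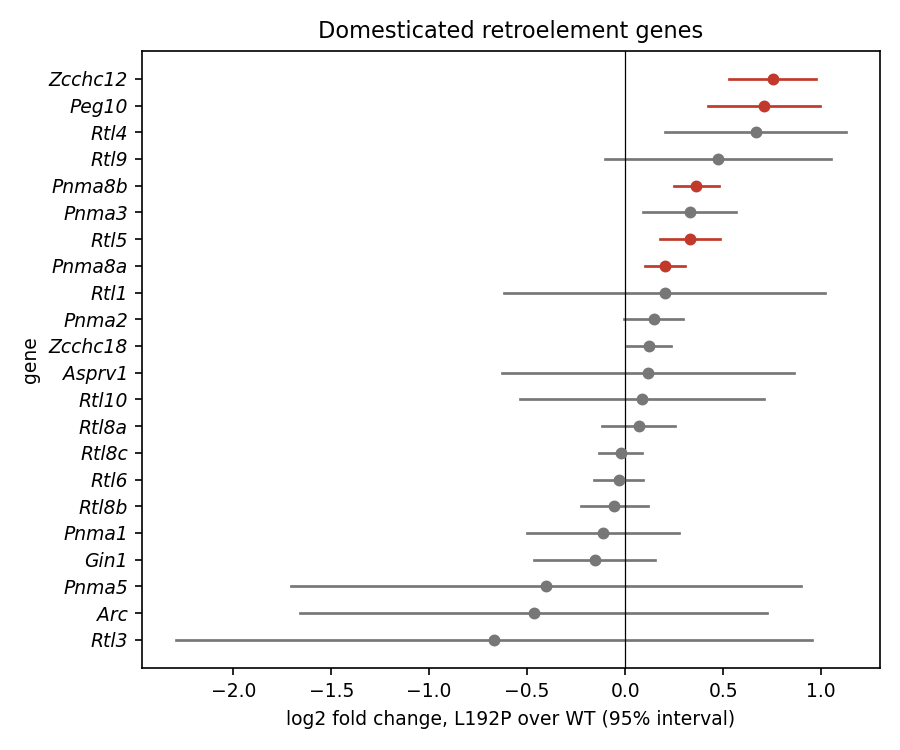
Log2 fold change of L192P over WT for the 22 domesticated retroelement genes with an adjusted p, with 95% intervals, ordered by size. The 5 genes called by DESeq2 (red) lie between 0.20 and 0.75, and the 17 others (grey) lie on both sides of 0.

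None of the nearest neighbours of Nynrin passed the test. Of 55 other genes of the count table within 300 kb, 27 had an adjusted p and 1 was called, against 1.36% of all tested genes. The median log2 fold change of the 27 was -0.023. On the side of Khnyn, Cbln3 lies 4177 bases from Nynrin and Sdr39u1 lies 22540 bases away. Cbln3 had 16.1 ± 5.82 normalized counts in L192P and 17.1 ± 10.8 in WT (SD, n = 4), and Sdr39u1 had 721 ± 74.8 and 762 ± 47.4. The DESeq2 adjusted p of Cbln3 was 0.991 and that of Sdr39u1 was 0.919. On the other side Nfatc4, Adcy4 and Ltb4r2 had 36.2, 18.2 and 7.02 normalized counts in L192P and 32.7, 17.7 and 13.3 in WT, with DESeq2 adjusted p-values of 0.985, 0.998 and 0.713. These 4 weakly expressed genes, Cbln3 included, leave wide intervals, for Nfatc4 from -0.68 to 0.93.

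The called gene was Rec8, which encodes a cohesin subunit of meiosis and lies 228615 bases from Nynrin, beyond the Nfatc4, Adcy4 and Ltb4r2 genes. It had 121.5, 123, 165 and 119 normalized counts in L192P replicates 1 to 4 and 71.9, 81.3, 77.1 and 60.9 in WT. The log2 fold change of Rec8 was 0.85 (SE 0.18), at adjusted p = 0.00108 by DESeq2. It passed in 15 of 17 alternatives, and edgeR and limma-voom did not call it. Without L192P replicate 3, the highest library, the log2 fold change was 0.72 and the DESeq2 adjusted p 0.0395.

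**Figure D5:**
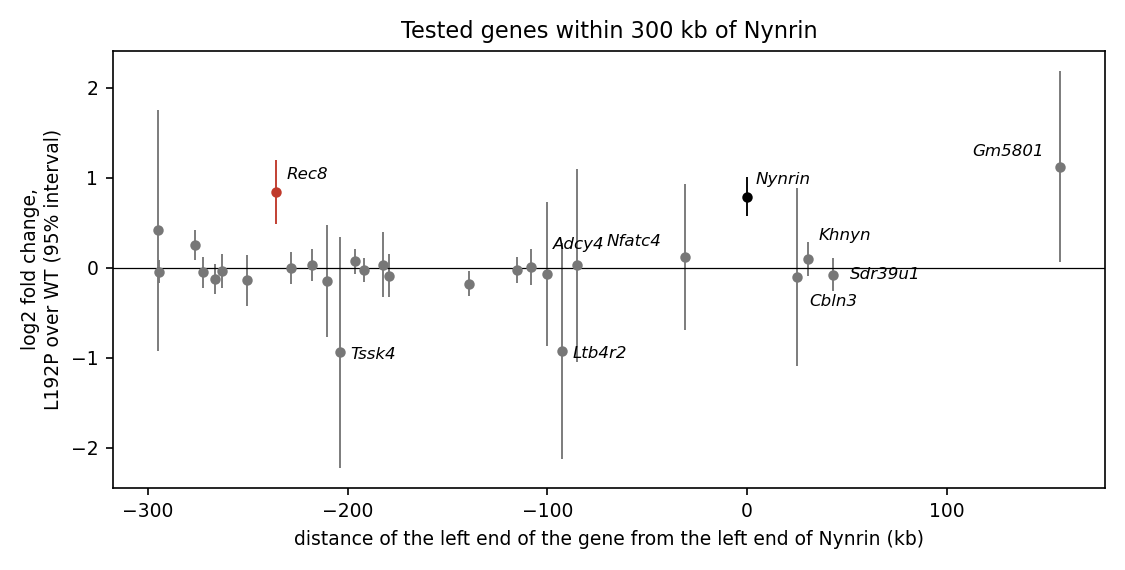
Log2 fold change of L192P over WT, with 95% intervals, of the 27 tested genes within 300 kb of Nynrin and of Nynrin itself (black), by the distance in kilobases of the left end of each gene from the left end of Nynrin. Rec8 (red) at 0.85 was called, and Khnyn, Sdr39u1, Cbln3 and Nfatc4 next to Nynrin lie near 0.

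The genes most like Nynrin were sought among the 13422 genes whose mean reached 50 normalized counts, by Pearson correlation of log2 normalized counts over the 8 libraries. Ssh1, a cofilin phosphatase, came first with r = 0.97, followed by Abtb3 (0.962), Pnma8b (0.96), Otof (0.958), which encodes otoferlin, and Klf4 (0.957). As the points of each genotype share the difference in Nynrin, these values mostly rank genes by a genotype difference. Of these 5 genes Ssh1, Pnma8b and Otof were called by DESeq2, with log2 fold changes of 0.34, 0.36 and 0.58 and adjusted p-values of 0.0188, 9.35e-07 and 7.02e-06. Klf4 and Abtb3 had DESeq2 adjusted p-values of 0.0728 and 0.235.

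Once the genotype means were removed, other genes came first. Among the same 13422 genes, the highest correlations with the deviations of Nynrin were those of Gna12 (r = 0.988) and Gna13 (0.987). Both encode α subunits of G proteins. Trib1 (0.986), Amotl2 (0.985) and Srebf1 (0.982) came next, and all of these were picked for the size of their correlation. None of these 5 genes passed the DESeq2 test, with adjusted p-values from 0.86 to 0.99. Ssh1 kept a correlation of 0.93 in the deviations, while Pnma8b had 0.53. Within the family, the correlation of deviations with Nynrin was 0.46 for Khnyn, 0.26 for N4bp1, 0.03 for Zc3h12b, -0.08 for Marf1 and -0.59 for Zc3h12c. These values rest on 8 libraries, in which replicate 1 of both genotypes stands apart, and are descriptions.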

How the data were processed

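Libraries were made with a stranded mRNA kit. Per the labels, the authors aligned the reads with STAR 2.7.9a (the methods of the study name another release) to GRCm39, counted them per gene with featureCounts 1.5.1 and deposited raw counts per library. They also deposited a normalized signal, each count divided by a DESeq2 size factor. Multiplied by size factors computed here, it gave back the counts to within 2.9e-10. The strand setting is not given in the sources used here.

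DESeq2 1.42.0 (R 4.3.3) was fitted to the counts of all genes with genotype as the only term, and p-values were adjusted by Benjamini-Hochberg over 18627 genes that passed independent filtering. The threshold was 0.05 with no minimum fold. Intervals are the estimate ± 1.96 standard errors. They give the uncertainty of the estimated difference between genotypes, not the range of the libraries. The labels do not say what the replicates are. Alternatives were edgeR 4.0.16 (quasi-likelihood), limma 3.58.1 (voom, and trend on log2 normalized values plus 1), TMM and total-count scaling, a low-count filter, no independent filtering, the replicate block, and leaving out libraries. Same-numbered libraries of both genotypes correlated in their deviations from the genotype means at 0.628, 0.381, 0.233 and 0.327 for replicates 1 to 4. The numbers were therefore read as pairs in the ratios of same-numbered libraries and in the replicate block. The main fit, its intervals and its adjusted p-values ignore this pairing. It called 253 genes, and the block called 533. No libraries of a genotype agreed within sampling noise (chi-square per degree of freedom 5.98 to 25). On simulated counts for 55416 genes with 200 changed by 1 log2 unit, DESeq2 recovered 93% with 10.1% false calls, above its threshold of 0.05. edgeR recovered 92% with 5.15% false calls, and limma-voom 90.5% with 3.21%.

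Positions, exon lengths and 3′ UTRs came from GENCODE M39 on GRCm39, in which 98.8% of gene identifiers were found. The members, lists and naming rule were chosen with earlier results of these data known. Named were all members, called list genes or otherwise the 2 most abundant, the 3 nearest neighbours with a mean of at least 10 on each side and called ones, and the 5 genes most like Nynrin by each measure. Genes named beyond this rule were chosen after their values were seen.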

Additional observations from a re-analysis of the deposited data

Results flagged for a closer look

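Of 38 groups of 4 libraries screened, 2 held a library far from the other 3, where chance flags about 1 in 20. In L192P, replicate 3 had the highest normalized count of Rec8, 165 against 119 to 123, with a gap of 0.907 of the range. The same library was highest for Ltb4r2, with 16.1 normalized counts against 3.41 to 4.79 and a gap of 0.892 of the range.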

How the results depend on the processing

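The log2 fold change of Nynrin ran from 0.75 to 0.83 over 17 alternatives. Khnyn, N4bp1 and Marf1 kept their direction and stayed short of the threshold in all 17. The sign of weaker estimates turned when single libraries were left out, with log2 fold changes from -0.263 to 0.145 for Zc3h12a, from -0.00081 to 0.046 for Zc3h12b and from -0.023 to 0.134 for Zc3h12c. Zc3h12d moved between -1.53 and 1.02, and Zc3h12b was at -0.00074 without replicate 1 of both genotypes. The number of called genes was 253, and 53 with edgeR, 45 with limma-voom, 63 with limma-trend, 533 with the replicate block and 500 without replicate 1 of both genotypes. Leaving out 1 library gave 112 (without WT replicate 4) to 496 (without WT replicate 1). For the retroelement list, 2 genes were called with edgeR, limma-voom and limma-trend, and 2 to 6 with a library left out (Pnma3 was added without WT replicate 1). Among partners and regulators 2 were called with the block (pairing by replicate number) and 0 to 1 with a library left out (Zc3hav1l without WT replicate 1, Dcp2 without WT replicate 2). Near Nynrin, 0 were called with edgeR and limma-voom and 2 without replicate 1 of both genotypes (Rec8 and Psme1). The block called none of Khnyn, N4bp1, Zc3h12b, Zc3h12c and Marf1, and Zc3h12a had no adjusted p in it. The cause of these shifts was not tested. Depth limits Zc3h12a and Zc3h12d, with at most 36 and 4 reads per library.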
